A study of Homo sapiens with 4 samples.

Results

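Cells dissolve and rebuild the matrix around them with secreted and membrane-bound proteases, and the genes for 9 components of that machinery are described here. They are the matrix metalloproteases MMP1, MMP2, MMP3 and MMP14, the tissue inhibitors of metalloproteases TIMP1 and TIMP3, and the plasminogen system genes PLAU, PLAT and PLAUR. The genes were taken by symbol, and all 9 were found among the 56832 genes of the deposited table. RNA was sequenced from A375, an established human melanoma line that the labels give as wild type. Cultures were kept for 48 h with 1 mM octanoate, a saturated medium-chain fatty acid, or with isopropanol, the solvent, and each group had 2 libraries. All of them were grown in DMEM with serum, so both groups share that medium, and a single cell line stands for melanoma. The labels do not say whether the 2 libraries of a group came from separate cultures, so the spread between these libraries may be technical. The limma p-values rest on that spread for each gene, pooled with the spread of other genes of like intensity.

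Matrix metalloproteases are zinc enzymes made as inactive precursors, and together they cut most proteins of the extracellular matrix. TIMPs bind the active site of these enzymes and block it. In the plasminogen system, the serine proteases urokinase (PLAU) and tissue plasminogen activator (PLAT) turn plasminogen into plasmin, which cuts fibrin and matrix proteins and can activate metalloprotease precursors. The urokinase receptor (PLAUR) holds urokinase at the cell surface, and inhibitors of the serpin family inactivate both activators. Melanoma cells are known for high tissue plasminogen activator and for MMP2 activated by MMP14 at the cell surface.

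Under octanoate the metalloprotease genes and the plasminogen system genes each held a rise and a fall, and both TIMP genes rose. Transcripts of PLAUR, TIMP1, MMP1 and PLAU rose at least 2-fold, which was 4 of the 9 genes. Those of TIMP3 rose by a smaller step, while PLAT and MMP2 fell. The PLAU rise rested on at most 45 reads per library. The calls of PLAU, TIMP3 and MMP2 were lost under some alternative settings, given with each gene below. MMP3 and MMP14 did not pass the test. In all, 5 of the 9 genes rose and 2 fell. Over all 20250 genes tested, 29.9% passed the same test (16.2% higher and 13.7% lower), and 4.21% passed it with a change of at least 2-fold (2.67% higher). The share that passed depended on depth. It was 9.06% at means from 10 to 30, 18.4% from 30 to 100, 38.6% from 100 to 1000 and 38.1% from 1000 up. The 2 groups did not overlap for any of the 9 genes, which was also true of 63.1% of all tested genes. In RNA from whole cultures, a change in the share of cells that transcribe a gene and a change in RNA per cell cannot be told apart.

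The promoters of PLAUR, TIMP1 and TIMP3 are shown because PLAUR and TIMP1 had the largest rises of the 9 genes and TIMP3 is the relative of TIMP1 that rose less. By symbol, 5 of the 9 genes matched the RefSeq table (GRCh38.p14): MMP14, TIMP1, TIMP3, PLAU and PLAUR. Each sequence is the 250 bases before the RefSeq start of transcription, read 5′ to 3′ on the strand of the gene. Capitals mark matches to the searched motifs.
PLAUR: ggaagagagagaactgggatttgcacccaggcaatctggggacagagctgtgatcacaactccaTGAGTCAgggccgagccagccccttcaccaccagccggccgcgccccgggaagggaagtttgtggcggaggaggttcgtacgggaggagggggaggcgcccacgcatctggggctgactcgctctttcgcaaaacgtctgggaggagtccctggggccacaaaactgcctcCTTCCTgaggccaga
TIMP1: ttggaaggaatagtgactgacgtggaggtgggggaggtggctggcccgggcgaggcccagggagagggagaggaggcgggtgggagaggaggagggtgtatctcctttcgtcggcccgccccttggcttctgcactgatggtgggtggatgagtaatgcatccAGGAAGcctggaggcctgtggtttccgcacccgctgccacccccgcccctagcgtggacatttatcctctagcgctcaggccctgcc
TIMP3: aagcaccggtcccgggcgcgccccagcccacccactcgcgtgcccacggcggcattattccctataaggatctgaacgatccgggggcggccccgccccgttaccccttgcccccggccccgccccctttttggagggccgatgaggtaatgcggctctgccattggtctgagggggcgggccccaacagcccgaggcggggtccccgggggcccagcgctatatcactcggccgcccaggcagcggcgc
The windows are chr19:43670170-43670419 on the minus strand for PLAUR, chrX:47582186-47582435 on the plus strand for TIMP1 and chr22:32801455-32801704 on the plus strand for TIMP3. GENCODE 29 places the start of the PLAUR gene 378 bases, of TIMP1 123 bases and of TIMP3 4 bases further upstream of the RefSeq start.

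The motifs were searched on both strands, and no matches of different motifs overlapped in these windows. The AP-1 motif TGANTCA was found in PLAUR, from 186 to 180 bases before the start (TGAGTCA). It occurs in 6.59% of the 34788 distinct RefSeq promoter windows of this length. The ETS-type motif AGGAAG was found in TIMP1, from 87 to 82 bases before the start, in PLAUR on the opposite strand, from 15 to 10 bases before it, and in 1 of the 2 windows listed for PLAU, against 28.7% of all windows. The cyclic AMP response element TGACGTCA (1.64% of all windows), the TATA box TATAAA (10.8%) and the DR1 element of nuclear receptors (0.0115%) were not matched in the windows of these 5 genes, and TIMP3 and MMP14 held none of the motifs searched. These are matches of letters only.

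The libraries held between 67785956 and 78005035 recovered reads. Of the tested genes 3271 were higher and 2777 lower under octanoate, and among the 15141 genes found in GENCODE 29 these were 2866 and 2575, or 2923 and 3969 after removal of the trends with GC content and length. The melanocyte lineage factor SOX10 was abundant (34072 to 41363 normalised counts) and did not pass the test. The melanocyte factor MITF fell from 3533 and 3330 to 2414 and 2511 (limma adjusted p 2.33e-06). The pigment genes PMEL, MLANA, TYR and DCT had at most 98.2, and of these PMEL rose (limma adjusted p 0.0289). The 5 leukocyte markers summed to between 24.1 and 32.4 normalised counts per library, and the B cell marker MS4A1 was at 0 in vehicle 1, vehicle 2 and octanoate 1. The 6 fibroblast markers summed to between 2557 and 2624 in vehicle and between 2244 and 2387 in octanoate, and 2 of them, COL1A1 and COL1A2, fell. The 4 endothelial markers summed to 576 and 580.1 in vehicle and 787 and 792 in octanoate, with PECAM1 and VWF higher. The 4 epithelial markers summed to 988 and 1166 in vehicle and 266 and 307 in octanoate, with KRT14 lower. Of the 5 markers of dedifferentiated melanoma, AXL, EGFR and NT5E rose and NGFR fell. The part of these differences in the results below was not tested.

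**Figure D1:**
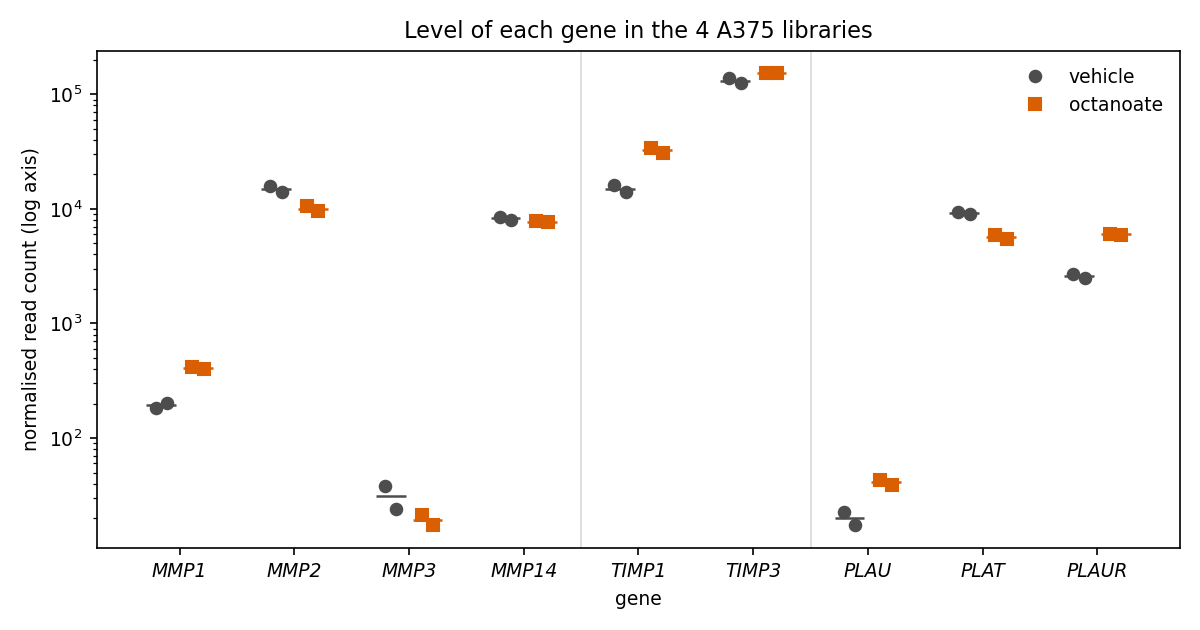
Normalised read count (log axis) of the 9 genes in each library; circles are the 2 vehicle libraries, squares the 2 octanoate libraries, and short lines the group means. TIMP3 was at 124699.7 or above in every library, while MMP3 and PLAU did not exceed 43.3.

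Among the metalloproteases, the interstitial collagenase gene MMP1 rose. MMP1 cuts fibrillar collagens, and its gene lies at chr11:102789920-102798160 on the minus strand. Its normalised read count was 182 and 203 with vehicle, against 421 and 402 with octanoate. Both octanoate values were far above both vehicle values, and the spread within a group was small beside the step between groups. The means were 193 ± 15.5 and 411 ± 13.1 (SD, n = 2 each). The change on the log2 scale was 1.09 by limma (SE 0.11, adjusted p 7.64e-08). In GENCODE 29 its exons overlap those of WTAPP1 on the opposite strand over 150 bases, and since no source used here states whether counting used the strand, reads there cannot be assigned with certainty.

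The gelatinase gene MMP2, whose product degrades gelatin and basement membrane collagen, fell. MMP2 lies at chr16:55389700-55506691 on the plus strand, where its exons overlap those of AC007336.3 over 174 bases. Its normalised counts were 15795 and 14056 in vehicle and 10519 and 9618 in octanoate, so that the higher octanoate library was well below the lower vehicle library. The means were 14925 ± 1230 and 10068 ± 637 (SD, n = 2 each). The change on the log2 scale was -0.57 by limma (SE 0.06, adjusted p 1.96e-07), or a level 32.5% lower. The call was lost without an intensity trend in the variance prior (limma adjusted p 0.0601).

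MMP14 encodes the membrane-type protease that activates pro-MMP2 at the cell surface. The gene is at chr14:22836557-22849027 on the plus strand. Its counts were 8583 and 7920.2 in vehicle and 7766 and 7699.9 in octanoate, close to each other in all 4 libraries although the groups did not overlap. The log2 difference was -0.09 (95% interval -0.21 to 0.03, limma adjusted p 0.251). The interval ran from 0.863 to 1.02 times the vehicle level. With the GC and length trends removed, an alternative chosen after seeing the data, the difference was -0.15 and was called (limma adjusted p 0.00655).

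MMP3, stromelysin-1, cuts proteoglycans and other matrix proteins and can activate pro-MMP1; it lies at chr11:102835801-102843803, in the same cluster as MMP1. It was close to the limit of detection, with 39 and 25 recovered reads in vehicle and 22 and 16 in octanoate. The normalised counts of 38.3 and 24.2 in vehicle and 21.2 and 17.3 in octanoate did not overlap, but the 2 vehicle libraries differed from each other more than vehicle 2 did from octanoate 1. The log2 difference of -0.64 had a 95% interval from -1.35 to 0.06 (limma adjusted p 0.166), or from 0.393 to 1.04 times the vehicle level, a range too wide at this depth to tell a fall from no change.

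Of the tested TIMP genes, TIMP1 had the largest rise. TIMP1 inhibits most soluble metalloproteases and lies at chrX:47582313-47586789 on the plus strand. Its normalised counts were 16016 and 13957 in vehicle and 34264 and 30767 in octanoate, and the lower octanoate library was well above the higher vehicle library. The means were 14986 ± 1456 and 32515 ± 2472 (SD, n = 2 each). The change on the log2 scale was 1.12 by limma (SE 0.07, adjusted p 3.88e-12). The level was 117% higher, with a 95% interval from 1.97 to 2.39 times that of vehicle.

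TIMP3, which unlike the other TIMPs stays bound to the matrix, was the most abundant of the 9 genes and rose to 1.16 times the vehicle level. It lies at chr22:32801701-32863043 on the plus strand. Its counts were 138154 and 124699.7 in vehicle and 152424 and 152169 in octanoate; the octanoate libraries were nearly equal and the vehicle libraries were further apart from each other. The log2 difference was 0.21 (SE 0.07, limma adjusted p 0.0202). The call was lost without vehicle 2 (0.14, limma adjusted p 0.158), without octanoate 1 (0.21, limma adjusted p 0.122) and without octanoate 2 (0.22, limma adjusted p 0.128), and also with every gene in the fit (limma adjusted p 0.136) and without an intensity trend (limma adjusted p 0.184).

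In the plasminogen system, the urokinase receptor gene PLAUR had the largest rise of the 9 genes. The promoter with the AP-1 match shown above belongs to this gene, which lies at chr19:43646095-43670547 on the minus strand. The normalised counts were 2700.2 and 2489.9 in vehicle and 6084 and 5915 in octanoate. The libraries of a group were close to each other, and both octanoate values were more than 2 times both vehicle values. The means were 2595 ± 149 and 5999.6 ± 119.6 (SD, n = 2 each). The change on the log2 scale was 1.21 by limma (SE 0.06, adjusted p 1.95e-13), or 2.31 times the vehicle level (95% interval 2.12 to 2.53).

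The urokinase gene itself, PLAU, was low. It lies at chr10:73909177-73917497 on the plus strand, and it had 23 and 18 recovered reads in vehicle and 45 and 36 in octanoate. The normalised counts were 22.6 and 17.4 in vehicle and 43.3 and 39.0 in octanoate, with both octanoate libraries above both vehicle libraries. The log2 difference of 1.01 (SE 0.31, limma adjusted p 0.0139) had a 95% interval from 0.38 to 1.65. The call was lost without vehicle 2 (0.84, limma adjusted p 0.0808), without octanoate 1 (0.94, limma adjusted p 0.1001), with every gene in the fit (limma adjusted p 0.0967) and without an intensity trend (limma adjusted p 0.0507), and in the authors' deposited table the adjusted p was 0.152. PLAU overlaps C10orf55 on the opposite strand over 916 exonic bases. C10orf55 was listed at 0 in both vehicle libraries and octanoate 2, and at 1 read in octanoate 1.

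Tissue plasminogen activator, PLAT, fell. The gene lies at chr8:42175233-42207724 on the minus strand, and its product is the main activator of fibrin-bound plasminogen. The normalised counts were 9426 and 9073 in vehicle and 5897 and 5484 in octanoate, with libraries of a group close together and no overlap. The means were 9249 ± 249 and 5690.1 ± 292 (SD, n = 2 each). The change on the log2 scale was -0.70 by limma (SE 0.06, adjusted p 1.63e-09), which is a level of 0.615 times vehicle.

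**Figure D2:**
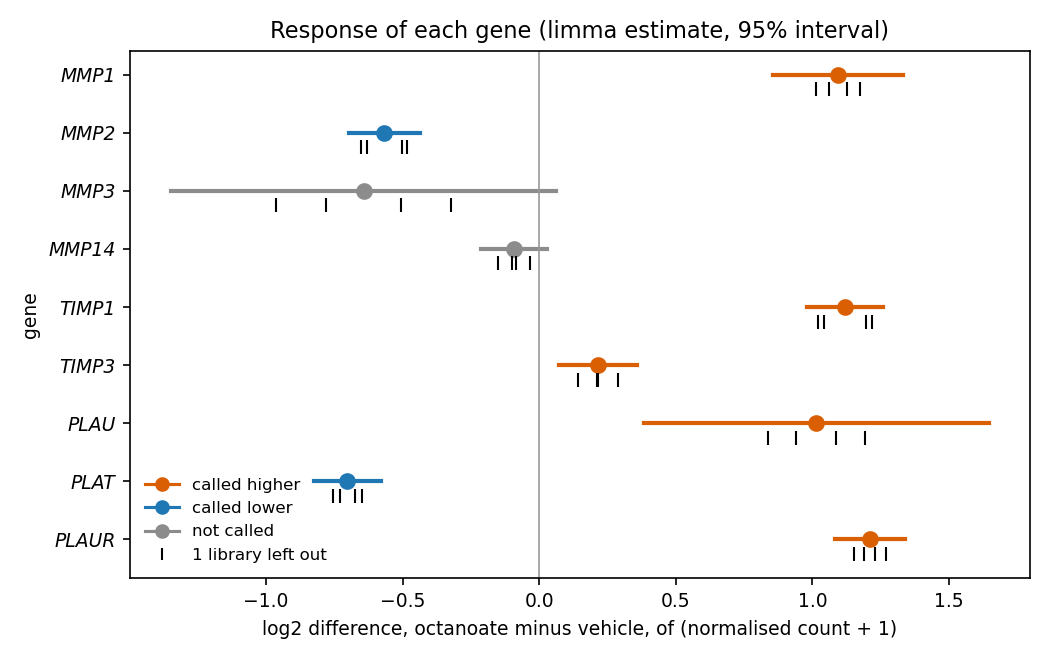
Log2 difference, octanoate minus vehicle, of each gene with its 95% interval from limma; vertical ticks are the estimates with 1 library left out. The intervals of MMP1, TIMP1 and PLAUR lie above 0, with lower ends of 0.86, 0.98 and 1.08, those of MMP2 and PLAT below 0, and those of MMP3 and MMP14 include 0.

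The authors' deposited table gave differences of similar size for the genes that changed. The log2 fold change in the authors' deposited table was 1.21 for PLAUR, 1.12 for TIMP1 and 1.10 for MMP1, and it was -0.70 for PLAT and -0.57 for MMP2. Of the 9 genes, 6 had an adjusted p under 0.05 in the authors' deposited table: those 5 and TIMP3, at 0.00208.

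Levels of different genes were compared as normalised counts per kilobase of exon in GENCODE 29. The length joins the exons of all annotated transcripts of a gene, not those of the transcript expressed here. Orders and ratios between genes can therefore shift with the length used. In vehicle, the order of mean levels per kilobase was TIMP3 (28552), TIMP1 (9725), MMP2 (3026), MMP14 (1848), PLAT (1398), PLAUR (582), MMP1 (97.7), MMP3 (15.3) and PLAU (6.78). In octanoate it was TIMP3 (33086), TIMP1 (21100.3), MMP2 (2041), MMP14 (1732), PLAUR (1346), PLAT (859.8), MMP1 (209), PLAU (13.95) and MMP3 (9.40). PLAUR changed places with PLAT. PLAU also changed places with MMP3, but these 2 genes rested on at most 45 reads per library, and MMP3 did not pass the test. With these lengths, the libraries of neighbours in this order did not overlap in either group. The level of the urokinase receptor was above that of its ligand in every library.

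Ratios of levels per kilobase within a library were taken for pairs that were chosen after the values were seen. They restate the rises and falls above as RNA ratios, and protein and activity were not measured. TIMP1 over MMP2 was 3.25 and 3.18 in vehicle and 10.4 and 10.2 in octanoate. TIMP1 over MMP14 was 5.41 and 5.10 in vehicle and 12.8 and 11.6 in octanoate. MMP1 over TIMP1 was 0.00887 and 0.0114 in vehicle and 0.00960 and 0.0102 in octanoate, so the groups overlapped. PLAUR over PLAT went from 0.425 and 0.407 to 1.53 and 1.60. PLAUR over PLAU was 79.2 and 94.5 in vehicle and 93.0 and 100.3 in octanoate, with overlap. For 2 libraries per group, 0.333 is the smallest two-sided p of an exact permutation test, so none of these pairs could pass 0.05.

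**Figure D3:**
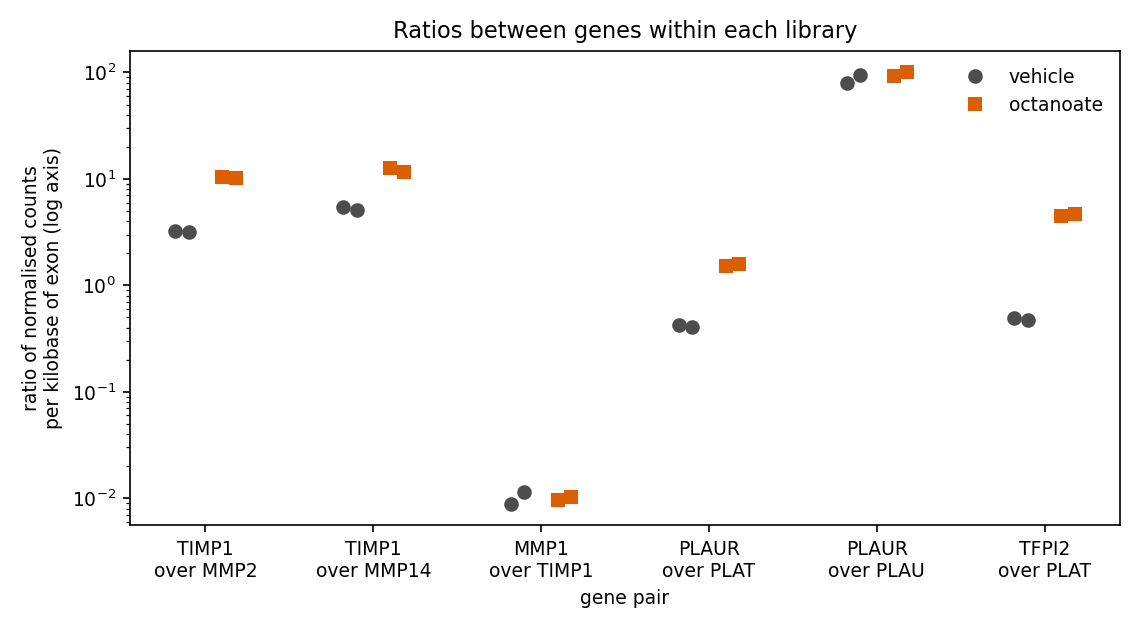
Ratio of normalised counts per kilobase of exon (log axis) for 6 gene pairs in each library; circles are vehicle and squares octanoate. TIMP1 over MMP2 sits near 3.2 in vehicle and above 10.2 in octanoate, while MMP1 over TIMP1 overlaps between the groups.

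The same genes can be read against the rest of their family through a list of 100 matrix protease, plasminogen system and inhibitor genes, the 9 included. Of the 100 genes, 81 passed the filter on low counts; 26 rose, 13 fell and 42 did not pass the test. That is 48.1% called, against 29.9% of all tested genes (16.2% higher and 13.7% lower), with a median log2 difference of 0.12, against 0.01 for all tested genes. The share of all genes is lowered by genes of low count. With the filter at a mean of 50, 71 listed genes were tested. Of those 71, 25 rose and 12 fell, against 38.3% called of all genes tested with that filter. The list was chosen with earlier results of these data known. Without the 9 genes, 72 were tested and 21 rose and 11 fell. All list counts are descriptions and were given no test of their own. Without an intensity trend 20 of the 81 were called, 14 higher and 6 lower, against 8.02% of all tested genes.

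The metalloproteases of the list split. Of 23 MMP genes, 14 were tested. Of these, 2 rose (MMP1 and MMP19), 4 fell (MMP2, MMP8, MMP13 and MMP15) and 8 did not pass. That is 42.9% called, against 29.9% of all tested genes (16.2% higher and 13.7% lower). The 3 collagenase genes lie in 1 cluster on chromosome 11 and on the same strand, and they moved in different directions. MMP8, the collagenase best known from neutrophils (chr11:102711795-102727050), had 410.3 and 374.9 normalised counts in vehicle and 176 in both octanoate libraries, a change of -1.15 on the log2 scale (limma SE 0.12, adjusted p 3.93e-08). MMP13 (chr11:102942995-102955734), named after its values were seen, went from 85.4 and 74.6 to 36.6 and 50.9. The change was -0.87 on the log2 scale (limma SE 0.23, adjusted p 0.00498), and in the authors' deposited table the adjusted p was 0.0823. The MMP13 call was lost without vehicle 1 (limma adjusted p 0.0657), without octanoate 1 (0.0659), with every gene in the fit (0.0923) and without an intensity trend (0.0883). MMP1, between these 2 genes on the chromosome, rose.

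MMP19, a metalloprotease of basement membrane proteins, had 399 and 433 normalised counts in vehicle and 824 and 893 in octanoate, a change of 1.04 on the log2 scale (limma SE 0.09, adjusted p 3.07e-09). Its exons overlap TMEM198B on the opposite strand over 814 bases. The membrane-type gene MMP15 fell from 1289 and 1101 to 669 and 659, a change of -0.84 on the log2 scale (limma SE 0.08, adjusted p 3.70e-08). The other membrane-type genes tested, MMP14, MMP16, MMP17, MMP24 and MMP25, did not pass the test. Summed over the 23 genes, the level per kilobase was 7164 and 6657 in vehicle and 5919.6 and 5876 in octanoate. MMP2 made up 44.7% and 42.8% of that sum in vehicle and 36.0% and 33.2% in octanoate, MMP14 26.8% and 26.7%, then 29.4% in both octanoate libraries, and MMP1 1.29% and 1.55%, then 3.61% and 3.47%.

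The inhibitors also split. TIMP2, which together with MMP14 presents pro-MMP2 for activation, went from 6956 and 6485 to 5669 and 5597, a change of -0.25 on the log2 scale (limma SE 0.06, adjusted p 0.00181). TIMP2 lost its call with every gene in the fit (0.0564) and without an intensity trend (0.118), and its exons overlap those of 2 other genes. A2M, a broad protease trap of blood plasma, went from 978 and 691 to 486 and 436, a change of -0.84 on the log2 scale (limma SE 0.12, adjusted p 4.94e-06), with its vehicle libraries far apart. Its call was lost under the same pair of settings (0.0549 and 0.0996), and its difference was -1.09 without vehicle 2 and -0.58 without vehicle 1. A2M shares 561 exonic bases with A2M-AS1 on the opposite strand. The membrane-anchored inhibitor RECK did not pass (0.11, limma adjusted p 0.323). TIMP1 made up 24.96% and 24.3% of the summed level per kilobase of the 4 TIMP genes in vehicle and 39.5% and 37.0% in octanoate, and TIMP3 72.1% and 72.6%, then 58.8% and 61.2%.

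Among the inhibitors of the plasminogen system, TFPI2, a Kunitz-type inhibitor of plasmin and other serine proteases, had 1904 and 1730.3 normalised counts in vehicle and 10703 and 10429 in octanoate, a change of 2.54 on the log2 scale (limma SE 0.06, adjusted p 3.07e-19). Both octanoate libraries were more than 5-fold above both vehicle libraries. TFPI2 exons overlap 2 genes on the opposite strand, over 79 and 44 bases.

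SERPINB2, which encodes a serpin that inhibits urokinase, and SERPINE2, which encodes protease nexin-1, also rose; both were named after their values were seen. SERPINB2 rested on 15 and 13 recovered reads in vehicle and 43 and 30 in octanoate (log2 difference 1.37, SE 0.34, limma adjusted p 0.00364). Its exons overlap those of SERPINB10 on the same strand over 547 bases. In the authors' deposited table SERPINB2 had an adjusted p of 0.0625. Its call was lost without octanoate 1 (limma adjusted p 0.0668) and with every gene in the fit (0.0604). SERPINE2 was the most abundant gene of the list by count, with 444161 and 403437 normalised counts in vehicle and 551473 and 551226 in octanoate (log2 difference 0.38, SE 0.08, limma adjusted p 0.000750). Its call was lost without an intensity trend (0.0756). SERPINF2, SERPINA5 and SERPINI1 did not pass the test. Relative to PLAT within each library, TFPI2 per kilobase was 0.498 and 0.471 in vehicle and 4.48 and 4.69 in octanoate.

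Plasminogen itself, PLG, had at most 5 reads in any library and was not tested. Among cell-surface binders and receptors of plasminogen and its activators, 4 of 6 genes rose, PLAUR included, and none fell. Of all tested genes, 16.2% rose and 13.7% fell. All 6 had means above 1000, where 38.1% of tested genes passed the test in either direction. The plasminogen receptor gene PLGRKT, named after its values were seen, was 1 of the 4 that rose (log2 difference 0.24, limma adjusted p 0.00941). The annexin ANXA2, which binds plasminogen and tissue plasminogen activator, went from 73156 and 70883 to 93093 and 88055 (log2 difference 0.33, SE 0.06, limma adjusted p 0.000250). LRP1, the endocytic receptor that clears activator and inhibitor complexes, went from 10016 and 9359 to 11617 and 11597 (log2 difference 0.26, SE 0.06, limma adjusted p 0.00106). Both lost their calls without an intensity trend (0.0757 and 0.110), and ANXA2 shares 1024 bases with the pseudogene ANXA2P2. S100A10 and ENO1, whose products also bind plasminogen, did not pass the test.

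**Figure D4:**
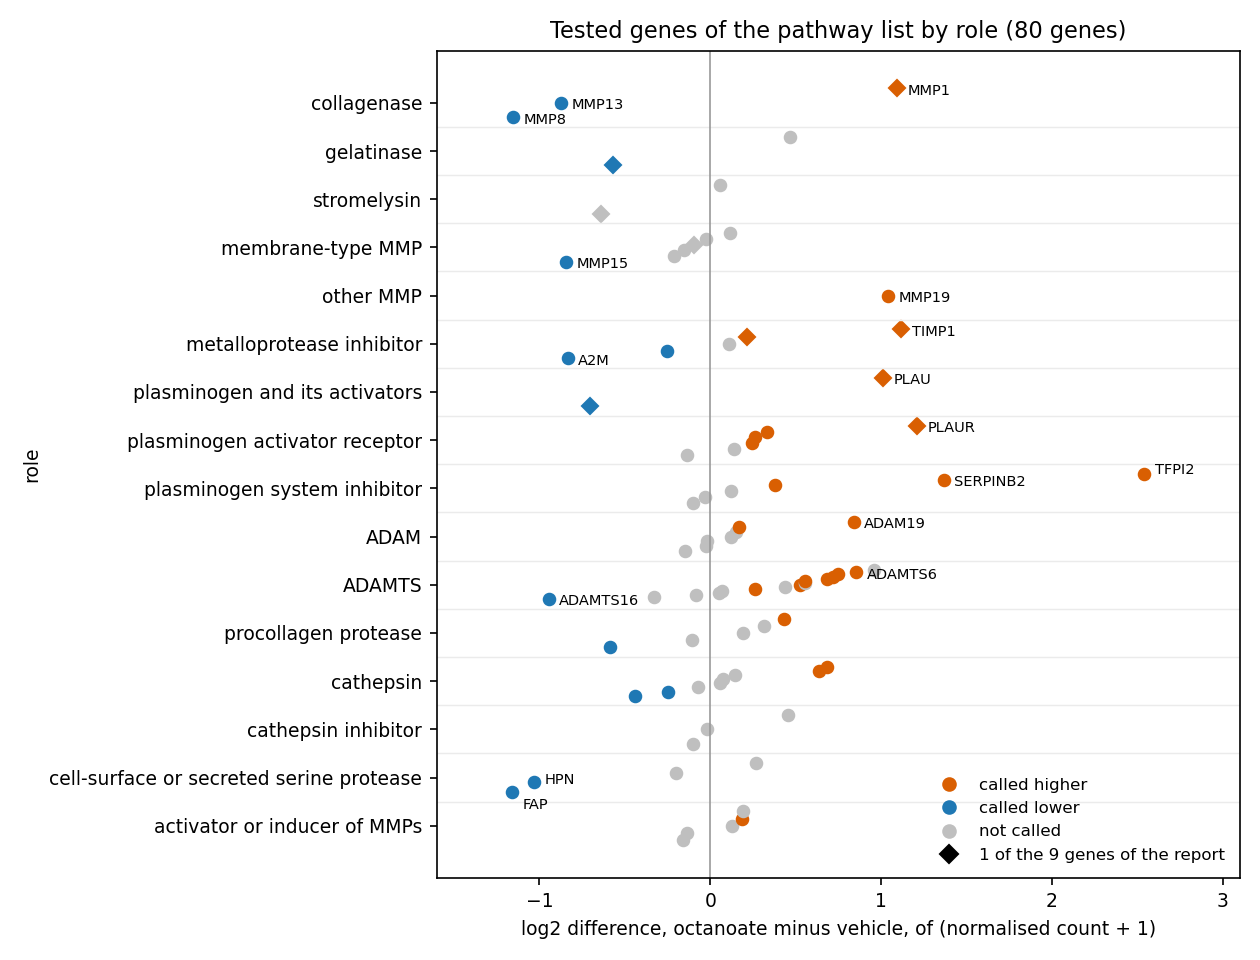
Log2 difference, octanoate minus vehicle, of 80 tested genes of the list in rows by role; diamonds are the 9 genes described first, and colours mark genes called higher, called lower or not called. TFPI2 stands furthest to the right at 2.54, and the 3 collagenase genes lie on both sides of 0.

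The ADAM and ADAMTS families are relatives of the metalloproteases that shed membrane proteins and cut proteoglycans. Of 7 tested ADAM genes, 2 rose and none fell, a share called of 28.6%, near the 29.9% of all tested genes. ADAM19 had the larger change, from 3864 and 3643 to 6662 and 6769 (log2 difference 0.84, SE 0.06, limma adjusted p 7.36e-11). The rise of ADAM9 (0.17, limma adjusted p 0.0235) was lost under 5 of 16 alternatives, among them leaving out vehicle 1, octanoate 1 or octanoate 2 (limma adjusted p 0.114, 0.104 and 0.139). Of 15 tested ADAMTS genes, 7 rose and 1 fell, a share called of 53.3%, against 29.9% of all tested genes (16.2% higher and 13.7% lower). ADAMTS6 went from 312 and 295 to 522 and 579 (log2 difference 0.85) and ADAMTS9 rose by 0.75 in log2 units (limma adjusted p 5.14e-07 and 1.08e-06). ADAMTS16 was the exception, from 757 and 696 to 379 and 374 (log2 difference -0.94, limma adjusted p 2.42e-08). FURIN, the convertase that activates MMP14, rose by 0.19 in log2 units (limma adjusted p 0.0202), and lost that call without vehicle 2 (0.208) or octanoate 1 (0.202), with every gene in the fit (0.168) and without an intensity trend (0.226). BSG, which encodes the metalloprotease inducer EMMPRIN, did not pass the test (-0.14, limma adjusted p 0.105).

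The genes most like PLAUR and PLAT across the 4 libraries were found by the distance between log2 values centred on the mean of each gene, among 13481 other genes with a mean of at least 100. Those nearest to PLAUR, the largest rise of the 9 genes, were SLC19A3, CPE and ATF3, at distances of 0.03, 0.06 and 0.06. Those nearest to PLAT, the largest fall, were RP11-282O18.3, ABAT and PLEKHA4, at distances of 0.01, 0.02 and 0.03. With 2 libraries per group such a distance reflects mostly the size of the difference between groups, and 14 genes lay within 0.1 of PLAUR and 50 within 0.1 of PLAT.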

How the data were processed

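RNA of A375 cells was sequenced in 4 libraries, 2 with vehicle and 2 with octanoate. The deposited signal is a count per gene divided by 1 size factor per library, and the submitters' processing notes list bcl2fastq 2.17, Trim Galore, STAR 2.4, Picard, HTSeq 0.9.1, DESeq2 and the build hg38, without roles. Annotation and use of strand are not given in the sources used here. The authors' deposited table holds p-values raw and adjusted, a log2 fold change with standard error, a mean signal and a test score for 33533 genes.

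Genes with a mean of at least 10 (20250) were put on the scale log2(normalised count + 1) and compared in R 4.3.3. The limma 3.58.1 fit had treatment as its only term, a variance prior that followed intensity, and Benjamini-Hochberg adjustment over all tested genes; tests were two-sided and called at an adjusted p under 0.05. Fold changes of low counts are understated on this scale. All positive values (100% in each library, within 0.01) were whole multiples of the library's smallest value, which gave whole reads for edgeR 4.0.16 (6480 genes called) and DESeq2 1.42.0 (4947 called). Replicates differed by more than sampling noise (chi-square per degree of freedom 5.29 and 7.28). Precision followed depth: the median standard error was 0.42 for means from 10 to 30 and 0.06 from 1000 up.

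GENCODE 29 gave positions, exon lengths and overlaps, and blastn 2.17.0 shared sequence (95% identity over 100 bases). The fits were tested on simulated data. The members and lists were chosen with earlier results of these data known. Named genes were the 9 members and, in each of 17 roles, up to 2 largest rises and 2 largest falls of called genes whose mean reached 100; others are marked as named after their values were seen. A gene of the list is not reported here, though list counts include it. Alternatives were 14 set out in advance (pseudocounts, filters, scaling, variance prior, replicate block, libraries left out, count models) and 2 added after seeing the data (genes in GENCODE 29; GC and length trends removed).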

Additional observations from a re-analysis of the deposited data

How the results depend on the processing

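Of the 35 genes whose values were recomputed, none changed direction under any of the 16 alternatives. The groups did not overlap for these genes, so a library left out or another pseudocount could not reverse the sign. Filters, the variance prior and the replicate block left the estimate itself unchanged, so these settings put no direction to a test. Of 552 values, 506 stayed on the same side of the threshold, 45 were no longer called and 1, MMP14, was newly called. PLAUR, TIMP1, MMP1 and PLAT were called under all 16, with log2 differences from 1.15 to 1.27, 1.02 to 1.22, 1.01 to 1.17 and -0.75 to -0.65. The largest loss came without an intensity trend: 1625 of all genes, 4 of the 9 genes (PLAUR, TIMP1, MMP1 and PLAT) and 20 of the 100 listed genes were called. With every gene that had a read in the fit, 2595 of all genes were called. For the other 5 genes, the log2 differences with 1 library left out ran from -0.65 to -0.48 (MMP2) and -0.96 to -0.32 (MMP3). They ran from -0.15 to -0.03 for MMP14, 0.14 to 0.29 for TIMP3 and 0.84 to 1.19 for PLAU. DESeq2 gave no adjusted p for PLAU, MMP3, SERPINB2 and FAP. For GC content and length, 74.8% of the tested genes had a value, so that check is void over all genes, though every member and listed gene tested was covered. The replicate numbers are shared by the groups in only 2 pairs. The labels give no meaning for these numbers, so same-numbered libraries were not taken as pairs. The correlation of same-numbered deviations was 0.126. With 2 libraries per group, the value for different numbers was its mirror image (-0.126), so this correlation cannot decide whether the libraries are paired. A replicate block on that number called 8376 genes, against 6048 in the main fit, with 5 of the 9 genes higher and 2 lower as before. With 1 library left out, the lone library of its group is assumed to vary like the other group. Depth limits MMP3 and PLAU, which rested on at most 45 reads per library.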

Other observations

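Lysosomal and pericellular proteases of the list were mixed as well. Of 8 tested cathepsin genes, 2 rose and 2 fell, where 16.2% of all tested genes rose and 13.7% fell. CTSL, which encodes the cysteine protease cathepsin L, went from 9074 and 8781 normalised counts in vehicle to 13816 and 13924 in octanoate (log2 difference 0.64, SE 0.06, limma adjusted p 3.58e-09). CTSS, cathepsin S, went from 141 and 128 to 243 and 194 (log2 difference 0.69, limma adjusted p 0.000786), and this call was lost with every gene in the fit (0.0566) and without an intensity trend (0.0788). CTSD, the aspartic protease cathepsin D, went from 3573 and 3152 to 2589 and 2354 (log2 difference -0.44, limma adjusted p 2.76e-05), its exons overlap 2 other genes, and its call was lost without an intensity trend (0.0919). CTSZ went from 27629 and 24458 to 22865 and 20939 (log2 difference -0.25, limma adjusted p 0.00463), a call lost without vehicle 1 (0.112) or octanoate 2 (0.0975), with every gene in the fit (0.151) and without an intensity trend (0.203). The cystatin genes CST3, CST6 and CSTB did not pass the test (limma adjusted p 0.889, 0.478 and 0.221).

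The procollagen C-proteinase enhancer genes moved in opposite directions. PCOLCE went from 7218 and 6156 to 4643 and 4241 (log2 difference -0.59, limma adjusted p 4.36e-07) and PCOLCE2 from 1083 and 1005 to 1486 and 1334 (log2 difference 0.43, limma adjusted p 0.000128), while BMP1, the proteinase they enhance, did not pass the test (-0.11, limma adjusted p 0.307). Both enhancer calls were lost without an intensity trend (0.0708 and 0.0796), and PCOLCE overlaps PCOLCE-AS1 on the opposite strand. HPN, which encodes the membrane serine protease hepsin, went from 219.9 and 225 to 97.2 and 120.3 (log2 difference -1.03, SE 0.15, limma adjusted p 7.81e-06), with HPN-AS1 overlapping it. FAP, named after its values were seen, rested on 32 and 29 reads in vehicle and 13 and 12 in octanoate (log2 difference -1.16, limma adjusted p 0.0173), and lost its call without vehicle 1 (0.112), vehicle 2 (0.0560) or octanoate 1 (0.0514) and with every gene in the fit (0.0913).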
